A study of Mus musculus with 2 samples.

Results

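A group of 7 genes is described, out of 32285 in the gene table of a single-cell RNA study of mouse cortex. They are the microtubule-severing ATPases and katanin subunits Katnal2, Katna1, Katnal1, Katnbl1, Spast, Fign and Fignl1, matched by symbol, and all 7 were found. The tissue was cortex of mice at postnatal day 5, in 1 droplet library from animals with a Katnal2 mutation (Mut) and 1 from wild-type animals (WT). Cells freed with trypsin and then collagenase were sorted by flow cytometry before loading. Neither the sort gate nor the kind and place of the Katnal2 mutation is known from the labels. Although 3 replicates are named for each sample, barcodes cannot be traced to animals, so each genotype counts as 1 sample. The comparison of Mut with WT therefore has no replicate check and carries no p-value. Intervals given after a value are 95% intervals of counting error alone.

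Katanin, spastin and fidgetin are AAA ATPases that assemble into rings, pull on the tails of tubulin and cut microtubules. Severing serves the mitotic spindle, the branching and growth of neurites, and the building of cilia, whose motile form covers the ependymal cells that line the brain ventricles. Katna1 encodes the catalytic subunit of katanin, and Katnal1 and Katnal2 encode katanin-like catalytic proteins, of which Katnal2 is known in mice for the sperm flagellum. Katnbl1 encodes a katanin-binding protein that is not itself an ATPase, Spast encodes spastin, which also acts on endoplasmic reticulum membranes and is mutated in human hereditary spastic paraplegia, and Fign encodes fidgetin. Fignl1 encodes fidgetin-like 1, which is known for a role in DNA repair by homologous recombination.

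UMIs (unique molecular identifiers, 1 per captured RNA molecule) were counted in 10102 kept Mut barcodes and 11024 kept WT barcodes, which held 88375648 and 84574847 UMIs. A kept barcode had 1000 UMIs and 500 genes or more, with mitochondrial UMIs no higher than 20%. The median barcode held 7626 UMIs in Mut and 6446 in WT. Cell types were set for each barcode by counting its markers, and 86.4% of Mut and 85.3% of WT barcodes passed for a single type, while 7% and 6.1% passed for several and were set apart. The types counted below are ependymal cells (30 Mut and 28 WT barcodes), astrocytes (4492 and 4717), oligodendrocyte precursors (1603 and 1760), committed oligodendrocyte precursors (114 and 127), inhibitory neurons (1067 and 1557), microglia (342 and 442), border-associated macrophages (239 and 97), endothelial cells (276 and 217), mural cells (274 and 250) and fibroblasts (144 and 56). The median barcode of each of these types held at least 4 of the type's own markers, and the median ependymal barcode held 7 of 9 ependymal and 3.5 of 9 astrocyte markers. With both libraries summed, the gene most raised in ependymal barcodes was Gnrh1 (log2 ratio 6.55), followed by the marker Rsph1 (6.12). By the mitotic markers described below, 26.7% of Mut and 21.4% of WT ependymal barcodes were dividing, against 16.3% and 16.5% of astrocytes. The part of dividing barcodes in the ependymal levels was not tested. Some further values set the libraries apart. Barcodes with Xist and no Y-linked UMI made up 65.6% of the Mut and 47.3% of the WT barcodes that could be assigned by these genes, and ratios by cell sex are given with the comparison of the libraries. An astrocyte cluster held 17 Mut and 750 WT barcodes, and 39 barcode names occurred in both libraries; the part of these in the results was not tested. Levels are UMIs of the gene per 1000000 UMIs of all genes (CPM), summed over the barcodes of a type. Such counts come from transcript ends and are not corrected for length, so levels of different genes are not set against each other.

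Katnal2 was highest in ependymal cells by a wide margin. On chromosome 18 in the mouse annotation, it was the sparsest of the 7 genes, with 426 UMIs in Mut and 327 in WT over all kept barcodes. In ependymal barcodes it reached 61.7 CPM in Mut (37.7 to 95.3; 20 UMIs) and 56.6 in WT (30.2 to 96.9; 13 UMIs). Astrocytes held 5.03 CPM in Mut and 4.17 in WT, so the ependymal level was 12.3 times (7.35 to 19.4) the astrocyte level in Mut and 13.6 times (7.08 to 23.8) in WT. Of the genes tested in the same way, 2.37% in Mut and 1.93% in WT were at least 10 times higher in ependymal barcodes than in astrocytes. A Katnal2 UMI was found in 33.3% of 30 Mut ependymal barcodes and 35.7% of 28 WT ones, against 4.52% of Mut and 3.43% of WT astrocytes. The UMIs were shared unevenly by 10 Mut ependymal barcodes, which held 20, and 10 WT ones, which held 13. In Mut, 5 barcodes had 1 UMI, 2 had 2, 2 had 3 and 1 had 5, while 20 had 0. In WT, 8 barcodes had 1 UMI, 1 had 2 and 1 had 3, while 18 had 0. The counting intervals do not cover such spread between barcodes. No other gap between neighbouring types in the order of Katnal2 levels exceeded counting error in both libraries. Inhibitory neurons came next in Mut with 8.57 CPM, above oligodendrocyte precursors with 5.59 (ratio 1.53, 1.02 to 2.28), whereas in WT inhibitory neurons had 4.86 and oligodendrocyte precursors 5.04 (ratio of the precursors to the neurons 1.04, 0.666 to 1.63).

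No Katnal2 UMI was counted in microglia, border-associated macrophages or endothelial cells of either library. Those 3 types together held 857 barcodes and 7536874 UMIs in Mut and 756 barcodes and 6102386 UMIs in WT. A count of 0 allows up to 0.398 CPM in Mut and 0.492 in WT (3 counts per library). RNA free in the suspension, read from barcodes of 10 to 100 UMIs, held Katnal2 at 3.87 CPM in Mut (18 UMIs) and 2.11 in WT (10 UMIs). The 3 types thus stood below the level of the free RNA. The astrocyte interval in Mut (4.39 to 5.74) overlapped the free RNA interval (2.29 to 6.12), and so did that in WT (3.57 to 4.85, against 1.01 to 3.88). The free RNA level is the share of Katnal2 within that RNA, not the amount it adds to a cell barcode. Any free RNA in barcodes of the 3 types is part of their count of 0, while astrocytes held 5.03 CPM in Mut and 4.17 in WT. The part of free RNA in the astrocyte level was not tested.

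Katnal2 was highest in the barcodes with the most ependymal markers. The 9 markers are genes of motile cilia and their transcription, among them Foxj1, the master regulator of motile ciliogenesis, and ependymal barcodes needed at least 4. The bins by marker number cover all kept barcodes, so those of 4 to 6 and 7 to 9 markers also hold barcodes that passed for several types and were set apart from the ependymal class. With 0 of the 9 markers, Katnal2 stood at 4.1 CPM in Mut (9323 barcodes) and 3.47 in WT (10246 barcodes). With 1 marker it stood at 8.18 in Mut (6.21 to 10.6) and 5.44 in WT (3.81 to 7.54). The Mut interval lies above that without markers (3.67 to 4.57). In WT the level was also higher with 1 marker, and its interval overlaps that without markers (3.06 to 3.91) at the edge. Overlap of separate intervals does not show the levels to be alike, and their ratio was not tested. With 7 to 9 markers it reached 90.6 in Mut (59.7 to 132; 20 barcodes) and 75.1 in WT (38.8 to 131; 15 barcodes). The bins between hold few barcodes, and with 4 to 6 markers the level was 10.5 in Mut and 22.7 in WT from 3 UMIs each. Ependymal barcodes without astrocyte identity by the marker rule had 85.2 CPM in Mut (44 to 149) and 82.1 in WT (37.6 to 156), and those that also passed for astrocytes had 43.7 in Mut (18.8 to 86) and 33.3 in WT (9.09 to 85.4). The intervals of these subsets overlap in each library.

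**Figure D1:**
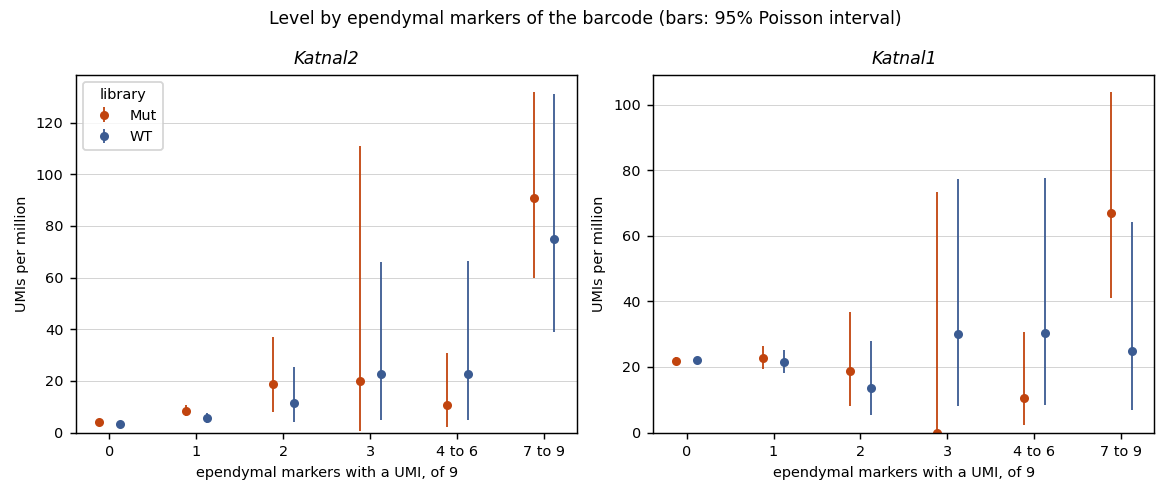
Level of Katnal2 (left) and Katnal1 (right) in CPM on the vertical axis, by the number of ependymal markers with a UMI in the barcode, Mut in orange-red and WT in blue, with 95% Poisson intervals. Katnal2 is highest with 7 to 9 markers in both libraries, at 90.6 in Mut and 75.1 in WT. Katnal1 is there at 67.1 in Mut (41 to 104; 20 UMIs) and 25 in WT (6.82 to 64.1; 4 UMIs), and these intervals overlap.

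Katna1, the katanin catalytic subunit (chr10:7726000-7763150, plus strand, GRCm38), was broadly present and highest in inhibitory neurons. It had 39.9 CPM there in Mut (35 to 45.4) and 41.5 in WT (37 to 46.4), which was 2.11 times (1.82 to 2.45) and 2.4 times (2.09 to 2.74) the astrocyte levels of 18.9 and 17.3. Microglia had 34.2 in Mut and 28 in WT, 1.81 times (1.43 to 2.28) and 1.61 times (1.26 to 2.05) the astrocyte level. The lowest of the 10 types was the endothelial cell in both libraries, with 17.7 in Mut and 15.8 in WT, so Katna1 spanned 2.25-fold in Mut and 2.62-fold in WT. Most neighbours in its order did not differ beyond counting error, the exception being oligodendrocyte precursors over astrocytes in Mut (23 against 18.9).

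Katnal1, the second katanin-like catalytic gene (chr5:148871584-148929320, minus strand), was higher in inhibitory and excitatory neurons and in maturing oligodendroglia than in astrocytes. Inhibitory neurons had 38.2 CPM in Mut and 38 in WT, 1.84 times (1.58 to 2.14) and 1.88 times (1.64 to 2.15) the astrocyte levels of 20.7 and 20.2. Excitatory neurons, of which 47 Mut and 43 WT barcodes were found, had 59.6 in Mut (34.7 to 95.4) and 57.2 in WT (32 to 94.3). Cajal-Retzius cells had 30.7 in Mut and 26.9 in WT, 1.37 times (0.626 to 2.61) and 1.21 times (0.622 to 2.11) the level of all other typed barcodes. Along the oligodendrocyte lineage the Katnal1 level was 28.5 in precursors, 44.6 in committed precursors and 73.7 in oligodendrocytes of Mut, and 26.5, 34.4 and 64.7 in the same stages of WT. Committed precursors were at 1.57 times the precursor level in Mut (1.1 to 2.19) and 1.3 times in WT (0.881 to 1.86), the latter within counting error. The median barcode called an oligodendrocyte held 3 oligodendrocyte and 6 committed precursor markers, and 25 of 47 in Mut and 28 of 48 in WT had just the 3 markers required. These barcodes stood 2.59 times (1.83 to 3.58) above precursors in Mut and 2.44 times (1.65 to 3.5) in WT. Microglia, macrophages, endothelial and mural cells and fibroblasts all lay between 5.34 and 8.9 in Mut and between 4.79 and 11.3 in WT. The ependymal value rests on few counts, 55.5 in Mut (18 UMIs) and 21.8 in WT (5 UMIs), and the ratio of the libraries was 2.55 with an interval of 0.912 to 8.79.

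Katnbl1, the katanin-binding protein (chr2:112379211-112414240, plus strand), was comparatively even. Oligodendrocyte precursors had 53.9 CPM in Mut and 51.9 in WT, and committed precursors 65.8 in Mut (50.1 to 84.9) and 46.6 in WT (34.1 to 62.1). Endothelial cells, low for Katnal1 and Spast, had 39.1 in Mut and 42 in WT, near the astrocyte values of 36.5 and 37.1. The highest type exceeded the lowest by 3.62-fold in Mut and 1.98-fold in WT. Katnal1 overlaps Gm42791 and Katnbl1 overlaps Gm21985 on the same strand in the annotation, and Katna1, Katnal1 and Katnbl1 each have an overlapping gene or pseudogene on the opposite strand, so reads of these 3 genes could have been split or shared with those partners and their levels are uncertain to that extent.

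Spast (chr17:74338987-74391115, plus strand) was found most often, with 7160 UMIs in Mut and 7078 in WT. It was highest in the oligodendrocyte lineage and in neurons. Committed precursors had 146 CPM in Mut and 139.8 in WT, precursors 124 and 130.1, and oligodendrocytes 129 and 137, and the intervals of the committed precursors (122 to 173 in Mut and 117 to 165 in WT) include the levels of the other stages. Inhibitory neurons had 114 in Mut and 110.0 in WT, 1.5 times (1.38 to 1.63) and 1.43 times (1.32 to 1.55) the astrocyte levels of 76.2 and 76.8. Other neurons, with few barcodes, were less even. Excitatory neurons were at 1.24 times the astrocyte level in Mut (0.817 to 1.81) and 1.94 times in WT (1.37 to 2.65). Cajal-Retzius cells had 51.2 CPM in Mut and 69.5 in WT, below astrocytes. Endothelial cells lay below astrocytes, with 36.4 in Mut and 43.1 in WT, and mural cells had 45.2 and 37.2. After every barcode was thinned to 1000 UMIs, a Spast UMI remained in 10.7% of Mut and 12.1% of WT oligodendrocyte precursors, against 6.97% of Mut and 7.42% of WT astrocytes. Without thinning these shares were 50.9% and 50.7% of precursors, and 48.5% and 45.3% of astrocytes, whose median depth was higher.

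Fign (chr2:63971507-64098038, minus strand) was concentrated in oligodendrocyte precursors. It had 58.6 CPM there in Mut (54 to 63.6; 587 UMIs) and 58.2 in WT (53.7 to 63; 612 UMIs), which was 8.43 times (7.33 to 9.71) the astrocyte level of 6.96 in Mut and 8.15 times (7.07 to 9.4) the astrocyte level of 7.15 in WT. Of all genes tested, 7.03% in Mut and 7.01% in WT were at least 4 times higher in these precursors than in astrocytes. The level was 45.7 in committed precursors of Mut and 40.5 of WT, and in oligodendrocytes it was 6.86 in Mut (4 UMIs) and 17.6 in WT (9 UMIs). Oligodendrocytes thus stood at 0.117 times the precursor level in Mut (0.0318 to 0.301) and at 0.303 times in WT (0.138 to 0.579). Fibroblasts had 23.5 in Mut and 16.9 in WT, below the precursors and committed precursors. Microglia and border-associated macrophages together held 3 Fign UMIs in Mut and 1 in WT. In thinned barcodes a Fign UMI was seen in 5.3% of Mut and 5.68% of WT precursors, against 0.935% of Mut and 0.784% of WT astrocytes; without thinning the shares were 27.4% and 26.9% of precursors and 5.81% and 5.24% of astrocytes, and 0.585% and 0.226% of microglia.

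**Figure D2:**
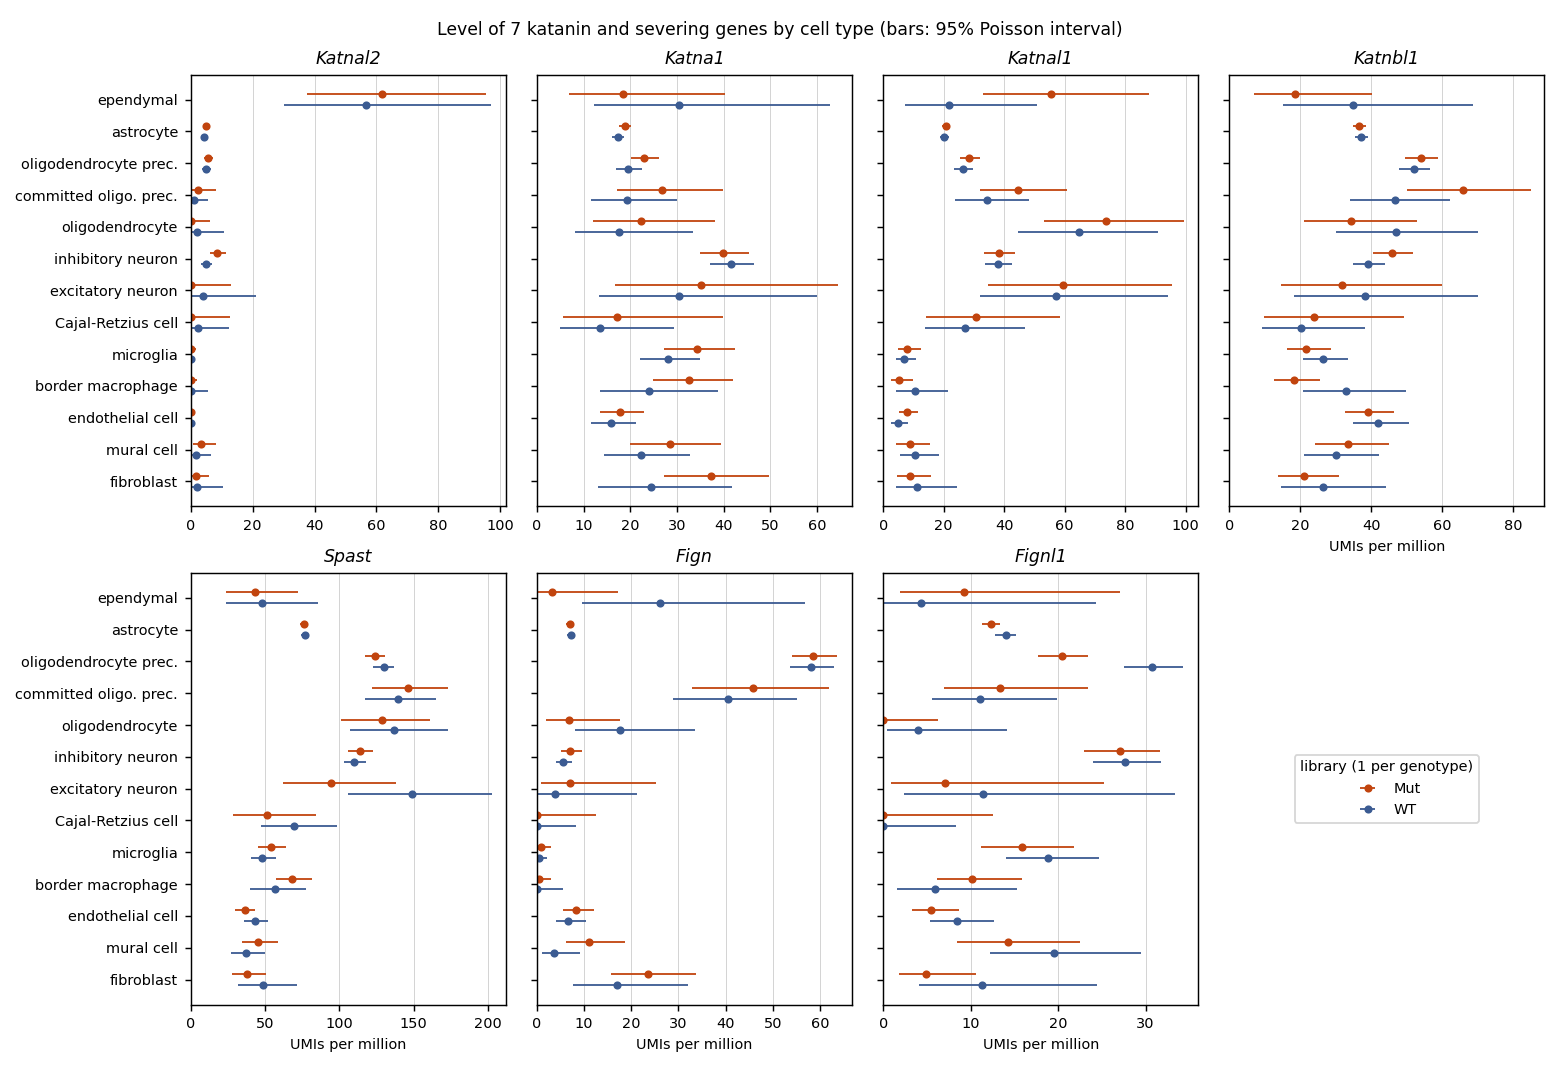
Level of each gene in CPM on the horizontal axis of its panel, by cell type down the page, with 95% Poisson intervals, Mut in orange-red above WT in blue. Katnal2 stands out in ependymal cells (61.7 in Mut and 56.6 in WT) and Fign in oligodendrocyte precursors (58.6 in Mut and 58.2 in WT), while Katna1 spans 2.25-fold in Mut and 2.62-fold in WT across the 10 counted types.

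**Figure D3:**
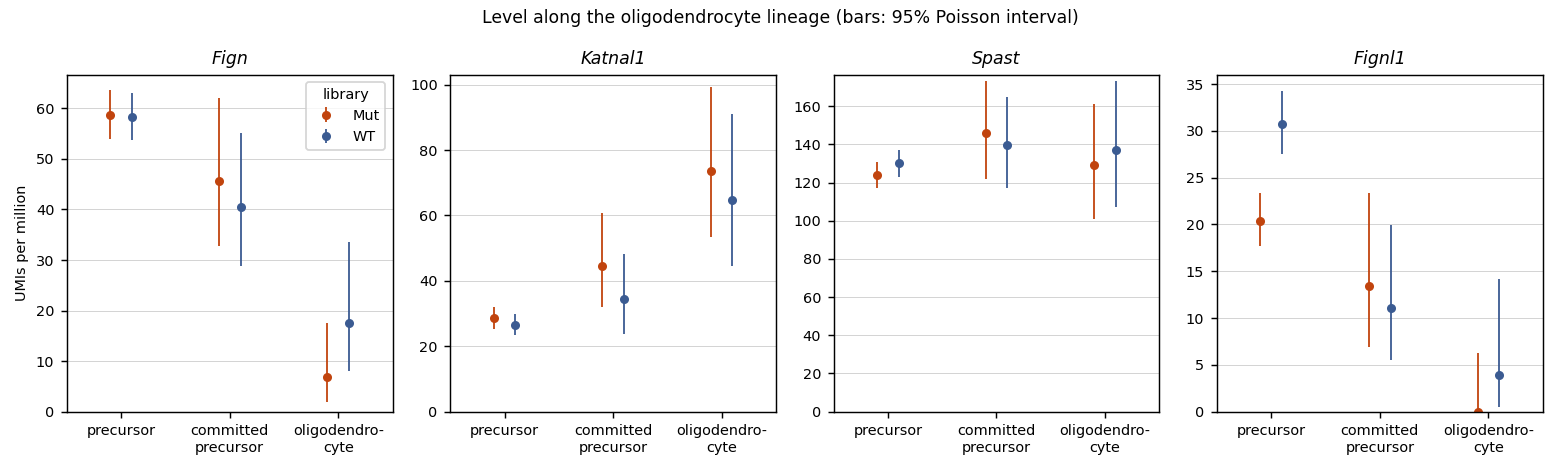
Level of Fign, Katnal1, Spast and Fignl1 in CPM on the vertical axes, in precursors, committed precursors and oligodendrocytes, Mut in orange-red left of WT in blue, with 95% Poisson intervals. Across the 3 stages of Mut, Fign has 58.6, 45.7 and 6.86, whereas Katnal1 has 28.5, 44.6 and 73.7 and Spast 124, 146 and 129.

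Fignl1 (chr11:11787431-11808962, minus strand) varied between types and more strongly with the cell cycle. Inhibitory neurons had 27.1 CPM in Mut and 27.7 in WT, oligodendrocyte precursors 20.4 and 30.7, and astrocytes 12.3 and 14. Barcodes that passed for no type, whose leading genes include the interneuron peptide genes Npy and Sst, Plac8 of the leukocyte list, Cdk6 and the progenitor genes Hes6 and Dll1, had 37.4 in Mut and 32.6 in WT. Oligodendrocytes, Cajal-Retzius cells and excitatory neurons, each with under 50 barcodes per library, held 2 Fignl1 UMIs together in Mut and 5 in WT.

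Dividing barcodes, those with a UMI of at least 4 of 8 mitotic markers such as Mki67 and Top2a, numbered 1988 in Mut and 2211 in WT. Among astrocytes, Fignl1 had 34.5 CPM in dividing barcodes and 5.68 in the others of Mut, a ratio of 6.07 (5.08 to 7.27), and 35.6 and 6.98 in WT, a ratio of 5.1 (4.29 to 6.07). Katnal2 had 9.92 in dividing and 3.56 in other astrocytes of Mut (ratio 2.79, 2.12 to 3.66), and 7.35 and 3.15 in WT (2.33, 1.7 to 3.19). Katnbl1 had 50.7 and 32.3 in Mut (1.57, 1.41 to 1.74), and 53.8 and 31.7 in WT (1.7, 1.52 to 1.89). Fign was at 1.64 times in Mut (1.28 to 2.09) and 1.34 times in WT (1.03 to 1.73). Of all genes tested, 18.7% in Mut and 18.8% in WT had a ratio of dividing to other astrocytes at or above the inverse of 0.8, and 4 of the 7 genes did in each library. At 2 times or more the shares of all genes were 5.96% in Mut and 5.88% in WT, and Fignl1 and Katnal2 were past that in both. Dividing astrocytes were also deeper, with a median of 13274 UMIs against 8960.0 in Mut and 12221 against 7624 in WT.

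Fignl1, Katnal2 and Katnbl1 were also higher in dividing oligodendrocyte precursors and inhibitory neurons. In oligodendrocyte precursors, the ratio of dividing to other barcodes was 4.91 (2.75 to 9.03) in Mut and 4.03 (2.23 to 7.47) in WT for Katnal2, and 1.41 (1.18 to 1.69) and 1.7 (1.43 to 2.02) for Katnbl1. For Fignl1 it was 3.26 in Mut and 3.09 in WT. In inhibitory neurons, Katnbl1 was at 1.6 in Mut and 1.61 in WT, Katnal2 at 4.67 (2.34 to 10.1) in Mut and 4.06 (1.85 to 9.8) in WT, and Fignl1 at 2.84 in Mut and 4.42 in WT. Types with fewer dividing barcodes were less even: Katnbl1 was at 1.3 (0.887 to 1.9) in Mut and 0.691 (0.434 to 1.07) in WT endothelial cells, where Fignl1 was at 4.81 and 3.98, and Katnal2 had no UMI in endothelial cells or microglia. Fign, 2.83 times higher in dividing inhibitory neurons of Mut (1.42 to 5.96) and 2.61 times in WT (1.32 to 5.38), was at 1.04 and 0.93 in oligodendrocyte precursors, the type where it is highest. Spast was between 0.875 and 1.08 in these 3 types and both libraries, and its intervals all included 1. The share of all genes past the same limit was 14.7% in Mut and 15.4% in WT for precursors, where 3 of the 7 genes reached it in each library. It was 21.4% and 24.4% for inhibitory neurons, where 4 of the 7 did in Mut and 5 in WT. These shares cover only genes with at least 100 UMIs in the type and library. Katnal2 had fewer in both types and Fign in inhibitory neurons, so counts and shares rest on unlike gene sets. Apart from Katnal2 and Fign, those past the limit were Fignl1 and Katnbl1 throughout, and Katna1 (1.26) in WT inhibitory neurons.

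Splitting the cycle further separated Fignl1 from Katnal2 and Katnbl1. An S phase list of 8 genes of DNA replication, such as Mcm5 and Pcna, at least 4 of them with a UMI, was added after the dividing contrast had been seen. In astrocytes of Mut, Fignl1 was at 1.93 CPM with neither set of markers, 40.1 with S phase markers alone, 45.3 with both and 21.8 with mitotic markers alone. In WT it was at 2.4, 52, 52.9 and 19.2 in the same order. With S phase markers alone Fignl1 was 20.8 times (15.2 to 28.8) the level with neither in Mut and 21.7 times (16.1 to 29.4) in WT. Katnal2 instead was highest with mitotic markers alone, at 11.3 CPM against 3.43 with neither in astrocytes of Mut (3.3 times, 2.33 to 4.64) and 9.81 against 3.04 in WT (3.23 times, 2.23 to 4.63), and its S phase values, 4.79 in Mut and 4.21 in WT, had intervals that overlap those with neither. In oligodendrocyte precursors with mitotic markers alone Katnal2 reached 20.9 in Mut (14.1 to 29.8) and 14.5 in WT (9.5 to 21.3), against 2.43 and 2.62 with neither. In inhibitory neurons it reached 25.7 in Mut (16.6 to 38) and 12.5 in WT (7.15 to 20.3), against 3.09 and 1.96. Katnbl1 in astrocytes was also highest there, with 59.6 in Mut and 61.4 in WT for mitotic markers alone, against 32.1 and 31.8 with neither. Cell cycle genes are themselves measured through the same UMIs, and the part of free RNA in these splits was not tested.

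**Figure D4:**
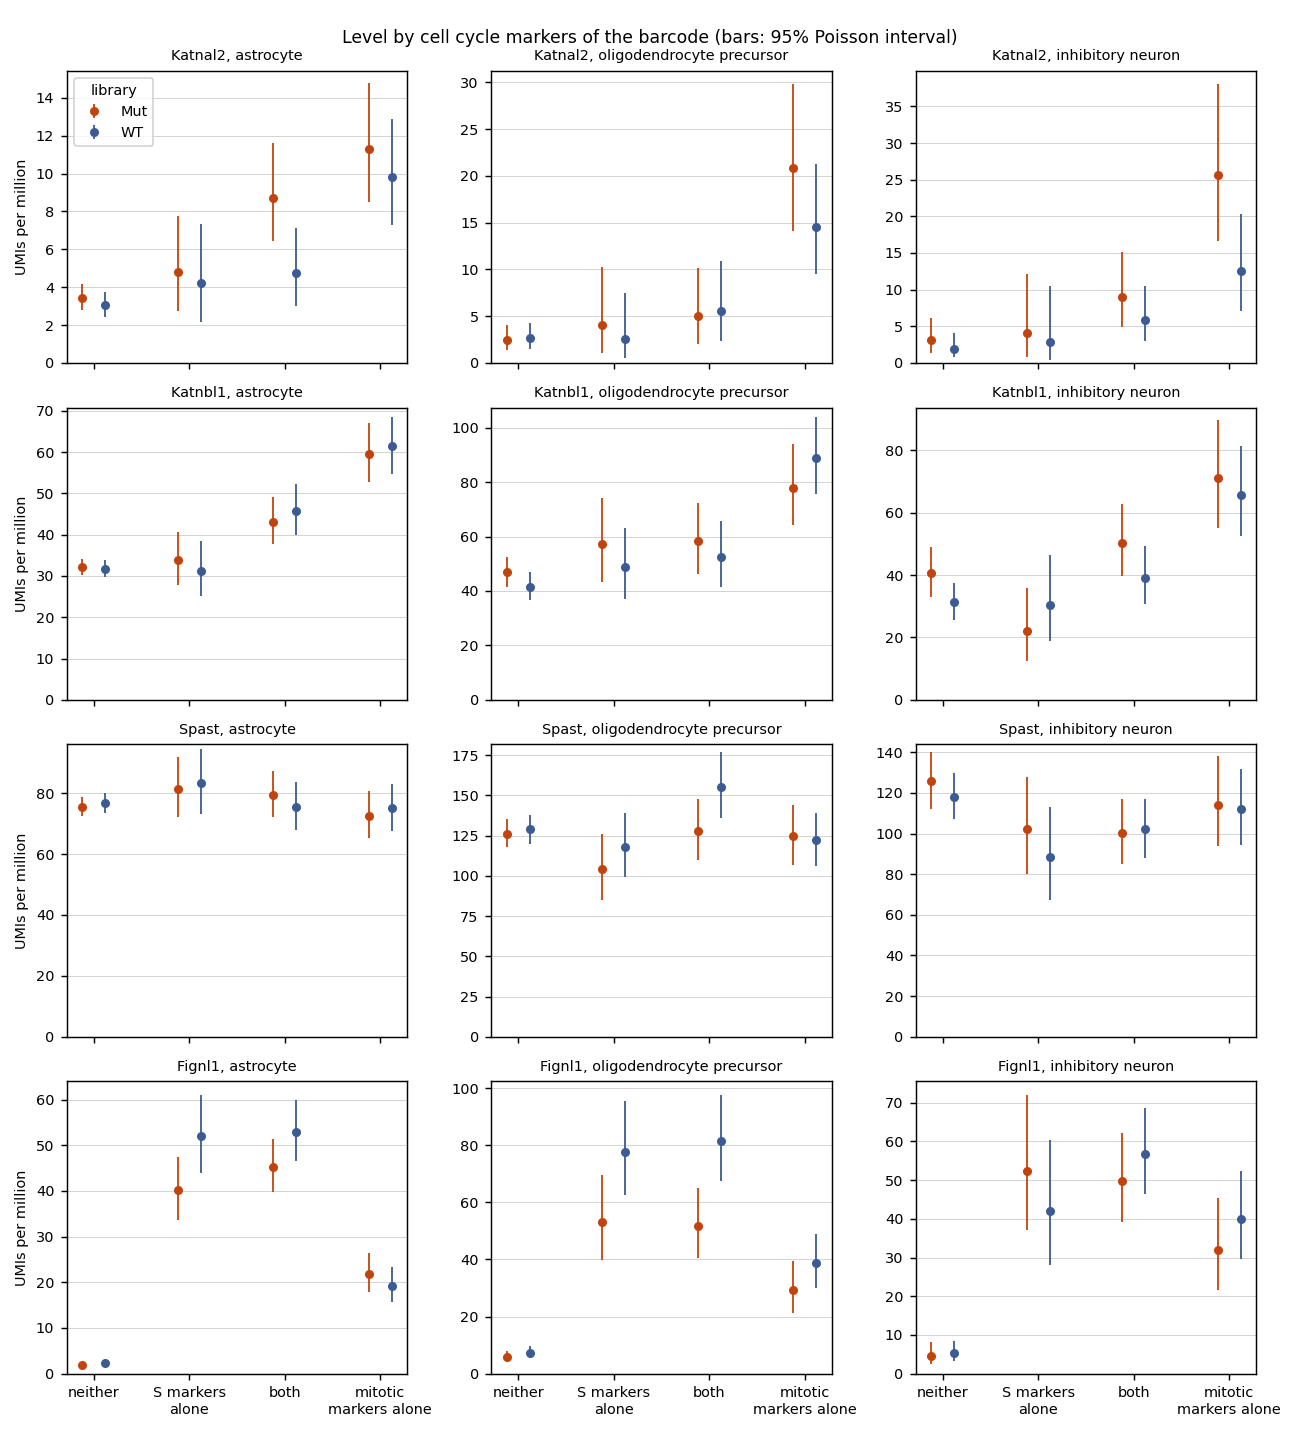
Level of Katnal2, Katnbl1, Spast and Fignl1 in CPM on the vertical axes, in 3 cell types, by whether a barcode had at least 4 S phase markers, at least 4 mitotic markers, both or neither, Mut in orange-red left of WT in blue, with 95% Poisson intervals. Fignl1 is high with S phase markers (40.1 in Mut and 52 in WT astrocytes), Katnal2 and Katnbl1 are highest with mitotic markers alone, and Spast in astrocytes lies between 72.6 and 83.2.

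The promoters of Fignl1 and Spast are shown because Fignl1 had the highest ratio of dividing to other astrocytes among the 7 genes and Spast had ratios near 1. The sequences run from 250 bases before to 50 bases after the annotated start, and capitals mark matches, on either strand, to TTCCCGC or TTTGGCGC, motifs of the E2F family of S phase regulators, or to TTTGAA or TTCGAA, the cell cycle homology elements of mitotic genes. The RefSeq table for GRCm38.p6 held a promoter for 4 of the 7 genes. Fignl1 is at chr11:11808913-11809212 on the minus strand and Spast at chr17:74338737-74339036 on the plus strand.
Fignl1: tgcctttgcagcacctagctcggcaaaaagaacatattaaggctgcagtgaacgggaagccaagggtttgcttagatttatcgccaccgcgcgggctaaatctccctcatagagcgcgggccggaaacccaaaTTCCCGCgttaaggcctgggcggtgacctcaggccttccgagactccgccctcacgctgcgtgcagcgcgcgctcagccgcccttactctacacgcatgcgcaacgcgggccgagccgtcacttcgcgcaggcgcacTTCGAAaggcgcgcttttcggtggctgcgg
Spast: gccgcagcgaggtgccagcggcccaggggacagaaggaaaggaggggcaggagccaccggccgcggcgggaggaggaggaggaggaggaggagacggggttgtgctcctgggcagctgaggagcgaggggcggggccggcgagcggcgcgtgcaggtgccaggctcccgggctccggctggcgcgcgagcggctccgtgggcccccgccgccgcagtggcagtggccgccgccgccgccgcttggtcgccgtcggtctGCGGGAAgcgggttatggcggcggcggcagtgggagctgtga
Fignl1 holds TTCCCGC 117 bases before its start and TTCGAA 21 bases into the transcript. Spast holds TTCCCGC on the other strand from base 9 of the transcript. Of 32851 promoters, 4.6% held TTCCCGC, 0.514% TTTGGCGC, 17.9% TTTGAA and 1.56% TTCGAA on either strand. A match describes the letters only. Of the other matched promoters, that of Fign held TTTGAA 3 times and that of Katnal1 held none of the 4 motifs.

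Between the libraries, over all kept barcodes, 0 of the 7 genes had a ratio of Mut over WT at or below 0.8, or at or above its inverse, where 12.1% of 15156 genes did (8.97% on the upper side and 3.09% on the lower side). Katnal2 came nearest on the upper side, with 4.82 CPM in Mut and 3.87 in WT, a ratio of 1.247 (1.08 to 1.44), which turned to 0.929 (0.594 to 1.45) when barcodes were thinned to 1000 UMIs, and Fignl1 on the lower side, with 14.8 in Mut and 18.2 in WT, a ratio of 0.810 (0.752 to 0.873). These ratios and the count past the limits are scaled by total UMIs. Scaling by the median of ratios lowers all ratios by a factor of 1.04, which takes Fignl1 below 0.8. The share of all genes past the limits was not recomputed for that scaling. Katna1 had 22.7 in Mut and 21.1 in WT (1.078, 1.01 to 1.15). Spast had 81 in Mut and 83.7 in WT, a ratio of 0.968, and Katnbl1 38.7 and 39.9, a ratio of 0.971. Katnal1 had 22 in Mut and 21.9 in WT, and Fign 14.3 in both. The counting interval left out 1 for 3 of the 7 genes, Katnal2, Katna1 and Fignl1, against 48.7% of all genes and 48.6% of those with UMI totals in the range of the 7. The median log2 ratio was 0.00 over the 7 genes and 0.05 over all genes tested. The Katnal2 RNA counted does not check the genotype, since UMIs near a transcript end can come from a mutated allele.

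By type, 67 of the 70 pairs of gene and type held a UMI, and the interval of the ratio left out 1 in 5 pairs, 1 higher and 4 lower in Mut, or 7.46% of them, against 12.6% of such pairs over all genes. After thinning to 1000 UMIs this held for 0 pairs, and among barcodes with Y-linked genes for 2. Katnal2 was higher in Mut inhibitory neurons, 8.57 against 4.86 CPM (1.76, 1.12 to 2.78; 50 and 36 UMIs). Most of these UMIs lay in dividing barcodes, 39 in Mut and 27 in WT, where the Katnal2 ratio was 1.8 (1.08 to 3.06). In the other inhibitory neurons Katnal2 was at 1.57 (0.591 to 4.28), from 11 and 9 UMIs. In ependymal cells its ratio was 1.09 (0.516 to 2.38) and in astrocytes 1.2 (0.982 to 1.48). Fignl1 was lower in Mut oligodendrocyte precursors, 20.4 against 30.7 CPM (0.663, 0.554 to 0.793; 204 and 323 UMIs), and in Mut astrocytes, 12.3 against 14 (0.882, 0.783 to 0.994). Within the precursors Fignl1 was lower in Mut among dividing barcodes, 40.4 in Mut and 57.8 in WT (0.699, 0.55 to 0.887), and among the others, 12.4 and 18.7 (0.664, 0.503 to 0.874). Dividing barcodes made up 20.1% of Mut and 21.9% of WT precursors. This split uses mitotic markers only, so barcodes with S phase markers alone, where Fignl1 was high in astrocytes, fall among the others. The part of S phase barcodes in the difference between the libraries was not tested. In inhibitory neurons Fignl1 did not differ beyond counting error, 27.1 in Mut and 27.7 in WT (0.977, 0.789 to 1.21). Katnbl1 was lower in Mut border-associated macrophages, 18.2 against 32.8 (0.554, 0.315 to 0.994), and Fign in Mut ependymal cells, from 1 UMI against 6. By sex of the cells, Fignl1 in precursors was at 0.609 (0.465 to 0.796) among barcodes with Xist and at 0.793 (0.591 to 1.06) among those with Y-linked genes, and Katnal2 in inhibitory neurons at 1.74 (0.8 to 3.99) and 1.8 (0.928 to 3.53). Over all types, Katnal2 was at 1.43 (1.12 to 1.82) among barcodes with Xist and at 1.13 (0.889 to 1.43) among those with Y-linked genes, and Fignl1 at 0.846 (0.754 to 0.949) and 0.804 (0.709 to 0.911).

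**Figure D5:**
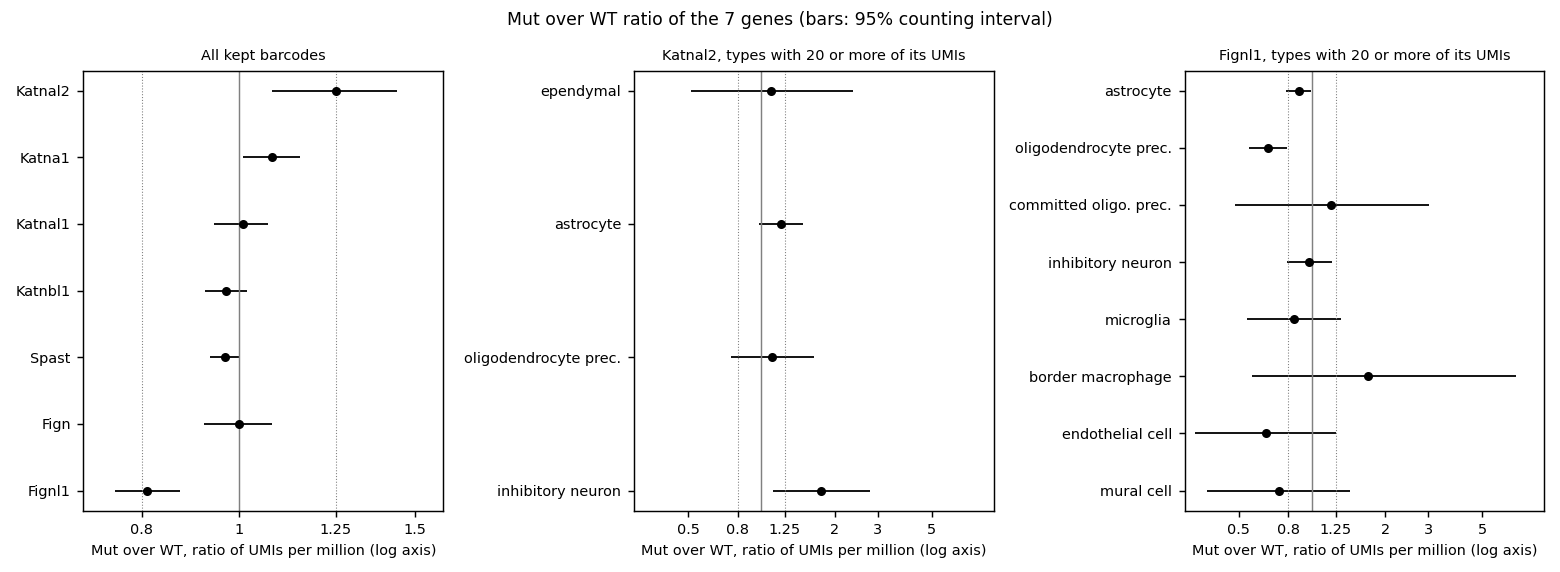
Ratio of Mut to WT on log horizontal axes, with 95% counting intervals, for the 7 genes over all kept barcodes (left) and for Katnal2 (middle) and Fignl1 (right) by cell type, with dotted lines at 0.8 and its inverse. Katnal2 is at 1.247 and Fignl1 at 0.810 over all barcodes, and in oligodendrocyte precursors Fignl1 is at 0.663 with an interval of 0.554 to 0.793.

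Partners of these proteins were taken as a list of 48 genes in 7 groups, of which 46 were in the table and 41 had at least 100 UMIs. Past the same limits of the ratio were 3 of the 41, 1 higher and 2 lower in Mut, and the median log2 ratio was 0.01. Over all genes tested the share past the limits was 12.1%, with 8.97% higher and 3.09% lower. The partner genes were thus not past the limits more often than genes at large. The higher gene was Swsap1, a gene of homologous recombination, with 6.48 CPM in Mut and 4.9 in WT (1.32, 1.17 to 1.51). The lower genes were Vash1, a tubulin detyrosinating enzyme, with 5.78 in Mut and 7.53 in WT (0.768, 0.682 to 0.864), and Agbl4, a tubulin deglutamylase, with 86 UMIs in Mut and 106 in WT (0.776, 0.577 to 1.04). Among the most abundant genes of each group, Vps4a and Vps4b, sister ATPases that act on membranes, were both at 1.16. The spindle and dynein partners Aspm and Pafah1b1 were at 0.968 and 0.986, and the spastin partners Reep1 and Ist1 at 1.09 and 1.05. Spidr, a scaffold in DNA repair, was at 1.02. The glutamylases Ttll1 and Ttll7 were at 0.925 and 0.972 and the deglutamylases Agtpbp1 and Agbl3 at 1.04 and 0.963. Sirt2, a tubulin deacetylase, was at 0.967 and Svbp, the partner of vasohibins, at 0.894.

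Several tubulin glutamylases, glycylases and deglutamylases were highest in ependymal cells. Of the 41 partner genes, 10 were highest in ependymal cells among the 10 types in both libraries, against 12% of all genes tested, and these 10 were 5 of 7 glutamylases and glycylases, 3 of 4 deglutamylases and 2 of 9 katanin subunits and partners. The count includes Ttll11, which rests on 1 ependymal UMI in each library, and leaves out Ttll1, Ttll7 and Agtpbp1, which were not highest there in both libraries. Of the enzymes and partners of tubulin acetylation and detyrosination, 0 of 7 were highest there in both. The same held for 0 of 3 sister ATPases, 0 of 7 spastin partners and 0 of 4 DNA repair partners. The genes named in this paragraph were chosen after their values were seen. Ttll3, a tubulin glycylase, had 105 CPM in Mut (34 UMIs) and 91.5 in WT (21 UMIs) ependymal cells, against 2.04 and 2.28 in astrocytes. Agbl3 had 98.8 in Mut and 87.1 in WT ependymal cells, against 11.6 and 13.1 in astrocytes. D430042O09Rik, the katanin-interacting protein named Kiaa0556 in RefSeq, had 201 in Mut and 266 in WT ependymal cells, against 18.8 and 21.2 in astrocytes, and its Mut over WT ratio over all barcodes was 0.866 (0.813 to 0.922).

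Across the 10 types, with both libraries summed, the genes with the pattern most like each of the 7 were ranked by Pearson's r of log2(CPM + 5) among 15029 genes, leaving out type markers. The types share libraries, so r is given as a description. Katnal2 was most like Bbof1 (r = 0.987), then Ankrd45, Ccdc173, Spa17 and Nek1. Genes most like Fignl1 included Racgap1 (0.971), Sgo2a (0.964), Kif14 and Cdca8. Fign was most like Pcdhb18 (0.98), then Pcdhb11, Acvr2a, Cpeb1 and Armh4. Katnal1 was most like Snhg14 (0.987), then Fsd1l, 6330403K07Rik, Gm49179 and Lhfpl4, and Spast most like Cmtr2 (0.987), then Pgap1, Eif4e, Ankrd49 and Lmtk3. Katnbl1 was most like Arl5a (0.981), then Ppm1l, Vps28, Vps4a and Eif3d, and Katna1, whose best match was weakest, most like Cwc25 (0.917), then Rgmb, Clk3, Gabpb2 and Vav2. Between the 7 genes the closest pair was Katnbl1 and Spast (0.739), followed by Katnal2 and Katnal1 (0.682).

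At least 1 of the 7 genes had a UMI in 71.6% of kept Mut barcodes and 68.3% of WT barcodes. A UMI of 1 gene alone was held by 34.7% of all Mut and 35.4% of all WT barcodes, and UMIs of 2 genes were seen together in 22.7% and 20.7%. All 7 were seen in 2 Mut barcodes and in 0 WT barcodes, and median depth was higher in Mut.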

How the data were processed

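Droplet single-cell libraries of mouse cortex at postnatal day 5 were analysed, 1 Mut and 1 WT. The authors deposited raw UMI counts per gene and barcode for every barcode; per the file headers these were written by Cell Ranger 4, and STAR and the build GRCm38 are named too, per the submitters' processing notes. The counting annotation and use of strand are not known from these sources. Depth was 97891513 UMIs in Mut and 93664707 in WT.

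Barcodes with at least 1000 UMIs, 500 genes and at most 20% mitochondrial UMIs were kept. A barcode took a type when at least 4 of the type's markers had a UMI (5 for oligodendrocyte precursors, and 3 for excitatory neurons, oligodendrocytes and leukocytes), ependymal identity being taken before astrocyte identity. These limits were settled after the distributions of marker numbers had been seen. No doublet caller was used; barcodes passing for several unrelated types were set apart, and Scrublet in scanpy 1.11.5 was an alternative. Intervals are exact (Poisson for levels, Clopper-Pearson for shares, conditional binomial for ratios) at 95%, from scipy 1.17.1, and cover counting error only. Those of ratios were run on counts simulated from the same Poisson model. That run checks the code and cannot show whether the intervals cover the spread between cells or animals. With 1 library per genotype no test was made. Ratios past 0.8 or its inverse were counted among genes with at least 100 UMIs over both libraries. For contrasts within a library the 100 UMIs were counted over the barcodes compared. The 7 genes, the lists and the motifs were chosen with earlier results of these data known. Named were the 7 genes, the 5 genes most like each, partner genes past the ratio and the 2 with most UMIs per group; a few genes that the rule names are not reported here. Positions are from GENCODE M21, in which 32158 of 32285 identifiers were found. Alternatives covered UMI and mitochondrial limits, doublets, thinning to 1000 UMIs, scaling, cell sex, type makeup, marker number and types from clusters.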

Additional observations from a re-analysis of the deposited data

How the results depend on the processing

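Over 12 settings, 31 results were recomputed, giving 276 alternative values. A value was counted as unchanged within the counting interval of the main value, and the number of pairs within a set fold of it. That includes values that crossed 1 inside the interval, such as Katnal1 at 0.987 among barcodes with Xist against 1.006. By this rule 256 of the 276 were unchanged. Thinning every barcode to 1000 UMIs leaves few counts and moved most of the others: the Mut over WT ratio was 0.929 for Katnal2 (0.594 to 1.45), the other side of 1, 0.875 for Katnal1 and 1.04 for Katnbl1, dividing over other astrocytes was 7.71 for Fignl1 in WT and 1.47 in Mut and 4.51 in WT for Katnal2, Katnal2 in WT ependymal cells was 0, and 0 pairs of gene and type, in place of 5, had a ratio whose interval left out 1. Among barcodes with Y-linked genes 2 pairs did, and Fignl1 in oligodendrocyte precursors was at 0.793 (0.591 to 1.06). Scaling by the median of ratios, which shifts all ratios by a factor of 1.04 (log2 0.05), put Spast at 0.935 (0.905 to 0.967). It also takes Fignl1, at 0.810 in the main setting, below 0.8, so the count of genes past the limits depends on the scaling. No cluster could be named ependymal, so types from clusters gave no Katnal2 value there. Scrublet removed 8.08% of Mut and 8.82% of WT barcodes. No paired analysis was possible because each genotype has 1 library. Depth limits Katnal2 most: its ependymal level rests on 20 UMIs in Mut and 13 in WT, so differences between the libraries there were not detectable unless large.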
